A study of Arabidopsis thaliana with 4 samples.

Results

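LBD16, LBD29 and GH3.1 are 3 auxin-induced genes of Arabidopsis thaliana that are linked to lateral root formation. They were taken by gene identity, as every probe set whose single annotated gene is 1 of the 3, which gave 3 probe sets of the 22746 on the array that are not controls, and 3 genes of 13356 with a probe set annotated to them alone. The 3 genes were chosen with earlier results of these data known. LBD16 is AT2G42430 on chromosome 2, LBD29 is AT3G58190 on chromosome 3 and GH3.1 is AT2G14960 on chromosome 2. Coordinates are left out because the sources used here name no genome build for the probes. All 4 arrays of the series were used, and no filter on low signal was set for the 3 genes.

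The sorted protoplasts, with 2 arrays, were root cells freed by digesting the cell walls and passed through a cell sorter that kept every cell. The whole roots, with 2 arrays, were harvested without protoplasting. Both groups came from roots of Columbia seedlings 6 days after germination that spent 1 hour on medium containing 140 mM NaCl, so salt treatment is shared by all 4 samples and no untreated root is among them. The comparison asks what protoplasting followed by sorting does to transcript levels. Nothing in the labels places the replicates in separate plantings, so the p-values reflect the spread among these 4 samples and that spread may be technical.

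Auxin acts in the root by removing Aux/IAA repressor proteins, which frees auxin response factors to switch on their target genes. LBD16 and LBD29 are such targets. They encode LOB-domain transcription factors that act downstream of the response factors ARF7 and ARF19 when pericycle cells start a lateral root, and both genes are also known for promoting callus formation. GH3.1 belongs to the GH3 family, whose auxin-induced members encode enzymes that join indole-3-acetic acid to amino acids and so lower the pool of free auxin.

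The 3 genes did not behave alike. GH3.1 rose in sorted protoplasts, the 1 of the 3 to pass the test, where 1.73% of all probe sets were called higher and 0.602% lower. LBD16 was higher on both sorted-protoplast arrays with a test result at the edge of the threshold, and LBD29 had values on both sides of the whole-root level. Values below are MAS5 signals, an intensity on a linear scale that the authors had scaled to the same trimmed mean on each array. Differences are on the scale of log2(signal + 16), sorted protoplasts minus whole roots. Signals of different probe sets are not set against each other, since each probe set has its own response.

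**Figure D1:**
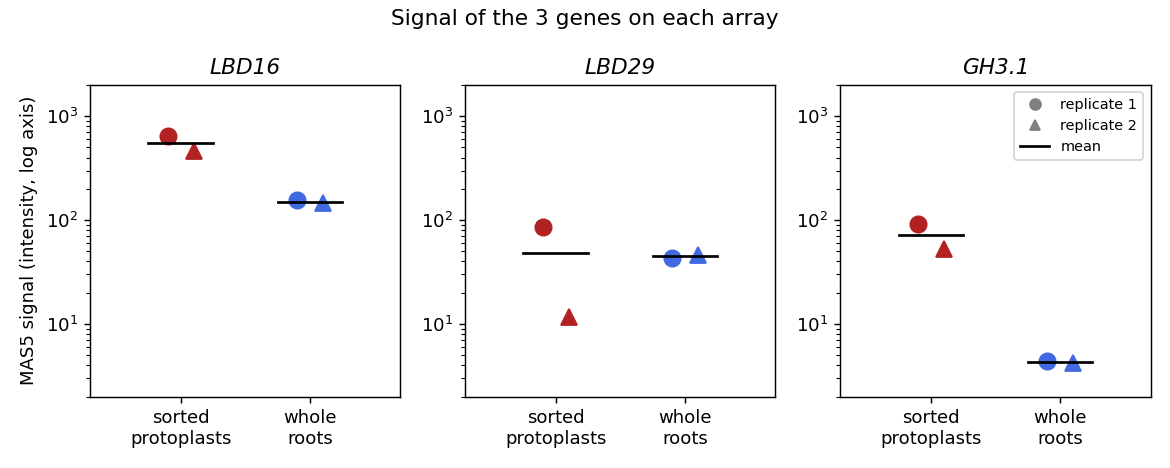
MAS5 signal (intensity, log axis) of LBD16, LBD29 and GH3.1 on each array, with sorted protoplasts left of whole roots, circles for replicate 1, triangles for replicate 2 and a line at the mean of each group (n = 2). LBD16 and GH3.1 are higher on both sorted-protoplast arrays than on both whole-root arrays, while LBD29 lies above the whole-root arrays in replicate 1 and below them in replicate 2.

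LBD16 had a signal of 646 and 460 on the sorted-protoplast arrays, against 155 and 147 on the whole-root arrays. Both sorted-protoplast arrays lay above both whole-root arrays, a pattern that 18.6% of the 22746 probe sets had. The means were 553 ± 132 in sorted protoplasts and 151 ± 5.65 in whole roots (SD, n = 2 each), a ratio of means of 3.66. On the log2 scale the difference was 1.75 ± 0.32 (SE), with a 95% interval from 0.99 to 2.51. In limma's test over all 22746 probe sets it had an unadjusted p of 0.00122 and an adjusted p of 0.0512, which did not pass the threshold of 0.05. With the 40% of probe sets of lowest mean signal left out, which LBD16 passed, the difference was the same and its SE was 0.36. Limma's adjusted p was 0.0149 over 13647 probe sets, of which 6.38% were called higher and 4.11% lower. The SE was larger than without the filter, so the lower adjusted p does not come from a tighter estimate. With all 22746 probe sets tested LBD16 passed in limma with an offset of 4 (adjusted p = 0.0390) and with array medians set equal (0.0432). With the filter it did not pass under spike-in scaling (0.232), without whole-root replicate 1 (0.138) or without whole-root replicate 2 (0.131).

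On its own array, LBD16 stood at the 87.4 and 83.7 percentile of all signals in sorted protoplasts, against the 63.9 and 60.2 percentile in whole roots. Its difference was exceeded by 713 of the 22746 probe sets. With arrays scaled on the hybridization spike-in controls the difference was 1.32 ± 0.62 (SE, limma adjusted p = 0.280). That scaling lowered the median difference of all probe sets to -0.42, against -0.11 as deposited. Relative to that median LBD16 was higher by 1.74 with spike-in scaling and by 1.86 as deposited.

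GH3.1 had a signal of 91.6 and 52.5 on the sorted-protoplast arrays, against 4.45 and 4.21 on the whole-root arrays. The groups did not overlap, with both sorted-protoplast arrays above both whole-root arrays, as for 18.6% of all probe sets. Both whole-root values were below the offset of 16 that was added before the logarithm. The means were 72.0 ± 27.7 in sorted protoplasts and 4.33 ± 0.17 in whole roots (SD, n = 2 each). The ratio of these means was 16.6, and it rests on whole-root signals at the 8.98 and 9.32 percentile of their arrays, where MAS5 values are least certain. No detection call was used here, so how far the whole-root signals lie above background is not stated. On the log2 scale with the offset, which shrinks a change from such a low signal, the difference was 2.08 ± 0.33 (SE, 95% interval 1.28 to 2.87). It passed limma's test with an adjusted p of 0.0374 over all probe sets.

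GH3.1 kept an adjusted p under 0.05 with spike-in scaling, at a difference of 1.86 ± 0.43 (SE, limma adjusted p = 0.0433). The SE was larger than the 0.33 as deposited, while limma's unadjusted p moved only from 0.000597 to 0.000782. That call therefore leans on limma's prior variance. The size of the GH3.1 difference depended on the offset. It was 3.14 ± 0.49 with an offset of 4 (SE, limma adjusted p = 0.0249) and 0.98 ± 0.17 with an offset of 64 (SE, limma adjusted p = 0.0672). The call was also lost when either whole-root array was left out, with limma adjusted p-values of 0.282 without replicate 1 and 0.237 without replicate 2. In those fits only the sorted-protoplast pair informs the residual spread, and limma called 0 probe sets in either. At an unadjusted p under 0.05, 1286 were higher and 1381 lower without replicate 1, and 1516 and 1771 without replicate 2. A constant prior variance left the difference as it was, with a limma adjusted p of 0.0504.

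LBD29, whose product acts with that of LBD16 in lateral root initiation, had a signal of 85.1 and 11.8 on the sorted-protoplast arrays, against 43.4 and 46.1 on the whole-root arrays. The 2 sorted-protoplast arrays lay on either side of the whole-root arrays, so the groups overlapped. The means were 48.4 ± 51.9 in sorted protoplasts and 44.8 ± 1.86 in whole roots (SD, n = 2 each). The log2 difference of -0.20 ± 0.61 (SE) did not pass limma's test (adjusted p = 0.900). Its 95% interval, from -1.67 to 1.27, leaves room for a rise or a fall of more than 1 on the log2 scale. Without sorted-protoplast replicate 2 the difference was 0.73 (limma adjusted p = 0.421), and without sorted-protoplast replicate 1 it was -1.13 (limma adjusted p = 0.175), so 1 array decides its sign.

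**Figure D2:**
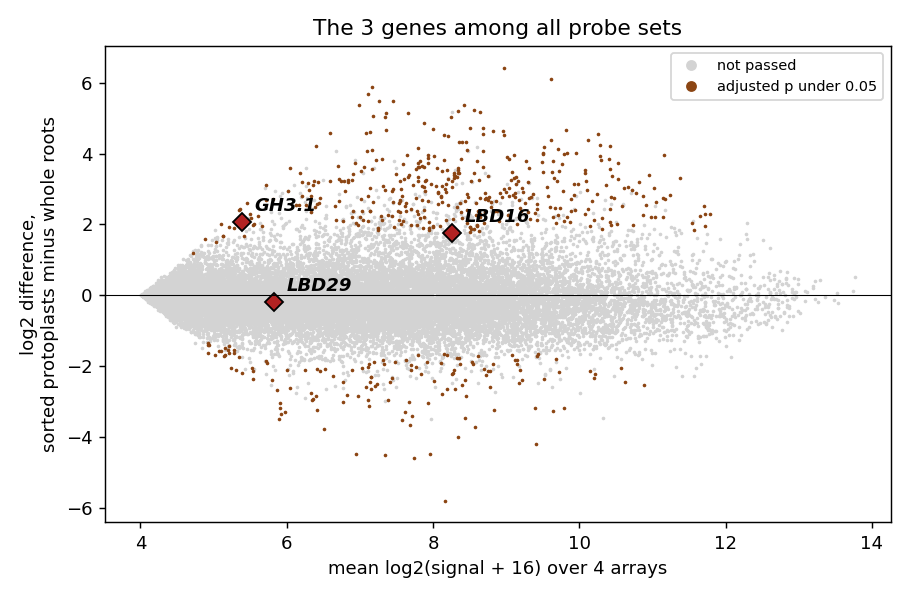
Log2 difference (sorted protoplasts minus whole roots, y axis) against the mean log2(signal + 16) over the 4 arrays (x axis) for 22746 probe sets, with brown points for an adjusted p under 0.05 in limma's test and diamonds for the 3 genes. GH3.1 lies at 2.08 among the dim probe sets that were called. LBD16 lies at 1.75 and did not pass, and LBD29 lies at -0.20, near the median of all probe sets at -0.11.

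The spread between arrays differed by group for all 3 genes. The 2 whole-root arrays were 0.07 apart on the log2 scale for LBD16, 0.06 for LBD29 and 0.02 for GH3.1, against a median gap of 0.33 over all probe sets. The 2 sorted-protoplast arrays were 0.48 apart for LBD16, 1.86 for LBD29 and 0.65 for GH3.1, against a median gap of 0.36. The offset shrinks gaps at low signal, above all for GH3.1 in whole roots. On the log2 scale without an offset the sorted-protoplast gaps were 0.49 for LBD16, 2.86 for LBD29 and 0.80 for GH3.1, against a median of 0.54 over all probe sets. The whole-root gaps were then 0.08 for each of the 3 genes, against a median of 0.48.

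The wider pathway could be read only in part. Of 130 genes in 9 lists of auxin response, lateral root formation and wound-induced regeneration, 21 were measured by a probe set of their own, the 3 above among them. Of all probe sets 1.73% were called higher and 0.602% lower in limma's test. By the same test 2 of the 21 rose, 0 fell and 19 did not pass. At an unadjusted p under 0.05, 6 were higher and 1 lower, while 8.45% of all probe sets were higher and 10.8% lower by that rule. The median log2 difference of the 21 was 0.33, against -0.11 over all probe sets. It was -0.08 with spike-in scaling, where the median of all probe sets was -0.42. Of the 18 genes other than LBD16, LBD29 and GH3.1, 1 rose and 0 fell in limma's test. Their median log2 difference was 0.26 as deposited. The 15 auxin response factors, 6 auxin receptors and 16 auxin transport genes listed had 0 members with such a probe set and are not analysed here, ARF7 and ARF19 included. The same holds for LBD17, LBD18 and LBD33, the other LBD genes listed.

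Among 13 GH3 genes listed, 7 were measured, and GH3.1 was the 1 that passed. GH3.3, another auxin-conjugating enzyme gene, had a signal of 309 and 143 in sorted protoplasts, against 603 and 584 in whole roots. Both sorted-protoplast arrays were below both whole-root arrays, as for 32.7% of all probe sets. Its log2 difference of -1.42 ± 0.41 (SE) did not pass limma's test (adjusted p = 0.133 over all probe sets and 0.0585 with the 40% filter). With that filter GH3.3 passed as lower with the replicate number as a block (limma adjusted p = 0.0172), a pairing not adopted here. Its difference was -1.94 without sorted-protoplast replicate 1 and -0.91 without sorted-protoplast replicate 2. AT1G23160, a locus listed with the GH3 family, had a signal of 203 and 136 in sorted protoplasts, against 31.0 and 66.0 in whole roots. Its difference of 1.56 ± 0.42 (SE) had a limma adjusted p of 0.120 over all probe sets and 0.0352 with the 40% filter. With the filter, AT1G23160 did not pass in limma under spike-in scaling (1.17, adjusted p = 0.198). It passed with a replicate block (limma adjusted p = 0.00646), a pairing not adopted here. With 1 array left out its difference lay between 1.16 and 1.96.

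AT5G51470, also listed with this family by its locus, had a signal of 107 and 63.5 in sorted protoplasts, against 14.4 and 20.1 in whole roots. Its difference of 1.58 ± 0.36 (SE) did not pass in limma (adjusted p = 0.0855). GH3.17, an auxin-conjugating enzyme gene, had a difference of -0.82 ± 0.38, WES1 (GH3.5) one of 0.17 ± 0.51 and GH3.9 one of 0.19 ± 0.29 (SE), none of which passed. The median difference of the 7 was 0.19 as deposited and -0.08 with spike-in scaling.

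The Aux/IAA repressors, themselves early auxin response genes in many cases, had 7 of 29 listed members measured, and 0 passed in limma's test, with 1 at an unadjusted p under 0.05. That gene was IAA18, with a signal of 506 and 390 in sorted protoplasts, against 220 and 230 in whole roots, and a difference of 0.93 ± 0.30 (SE, limma adjusted p = 0.170). Its groups did not overlap, with both sorted-protoplast arrays higher, as for 18.6% of all probe sets. IAA30 had a signal of 335 and 50.2 in sorted protoplasts, against 61.7 and 44.3 in whole roots. The sorted-protoplast value of replicate 1 set its difference of 1.16 ± 0.76 (SE, limma adjusted p = 0.463), since replicate 2 lay between the whole-root values. That difference was 2.36 without sorted-protoplast replicate 2 and -0.05 without sorted-protoplast replicate 1. The differences of IAA29, IAA33, IAA20, IAA34 and IAA31 lay between -0.63 and 1.18. For IAA29 the difference was 1.81 without sorted-protoplast replicate 2 and 0.56 without sorted-protoplast replicate 1.

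Of the lateral root genes beyond the LBD family, 2 of 22 listed were measured. PUCHI, an AP2-type transcription factor gene of young lateral root primordia, had a signal of 347 and 76.5 in sorted protoplasts, against 78.0 and 155 in whole roots, and its groups overlapped. Its difference was 0.53 ± 0.68 (SE, limma adjusted p = 0.730). Without sorted-protoplast replicate 2 it was 1.51, and without sorted-protoplast replicate 1 it was -0.46. CR4 (ACR4), a receptor kinase gene that limits divisions of the pericycle, had a difference of -0.32 ± 0.31 (SE, limma adjusted p = 0.630). Among auxin synthesis and turnover genes 2 of 15 were measured and 0 passed in limma, with 0 at an unadjusted p under 0.05, YUC2, a flavin monooxygenase gene of auxin synthesis, at -0.45 ± 0.36 and AT1G14130 at 0.33 ± 0.38 (SE).

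The 1 measured gene of the 9 in the wound-induced regeneration list was AT5G61890. It had a signal of 531 and 1116 in sorted protoplasts, against 43.0 and 53.7 in whole roots. The groups did not overlap, with both sorted-protoplast arrays higher, as for 18.6% of all probe sets. The difference of 3.62 ± 0.42 (SE) passed limma's test (adjusted p = 0.0187 over all probe sets and 0.00104 with the 40% filter). Its limma adjusted p was 0.201 without whole-root replicate 1 and 0.187 without whole-root replicate 2 when no filter was set. With the 40% filter, 13 of the 21 genes were tested, and 3 were called higher and 0 lower. The 3 were LBD16, AT1G23160 and AT5G61890. Of all 13647 probe sets tested with that filter, 6.38% were called higher and 4.11% lower. A replicate block added to that filter also called IAA29 higher (1.18, limma adjusted p = 0.0481) and GH3.3 lower (-1.42, 0.0172). With the filter alone neither passed in limma (adjusted p = 0.125 for IAA29 and 0.0585 for GH3.3). For LBD16 the same block raised the SE from 0.36 to 0.46 yet lowered p, so such calls lean on limma's prior variance. Replicate numbers were not taken as pairs.

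**Figure D3:**
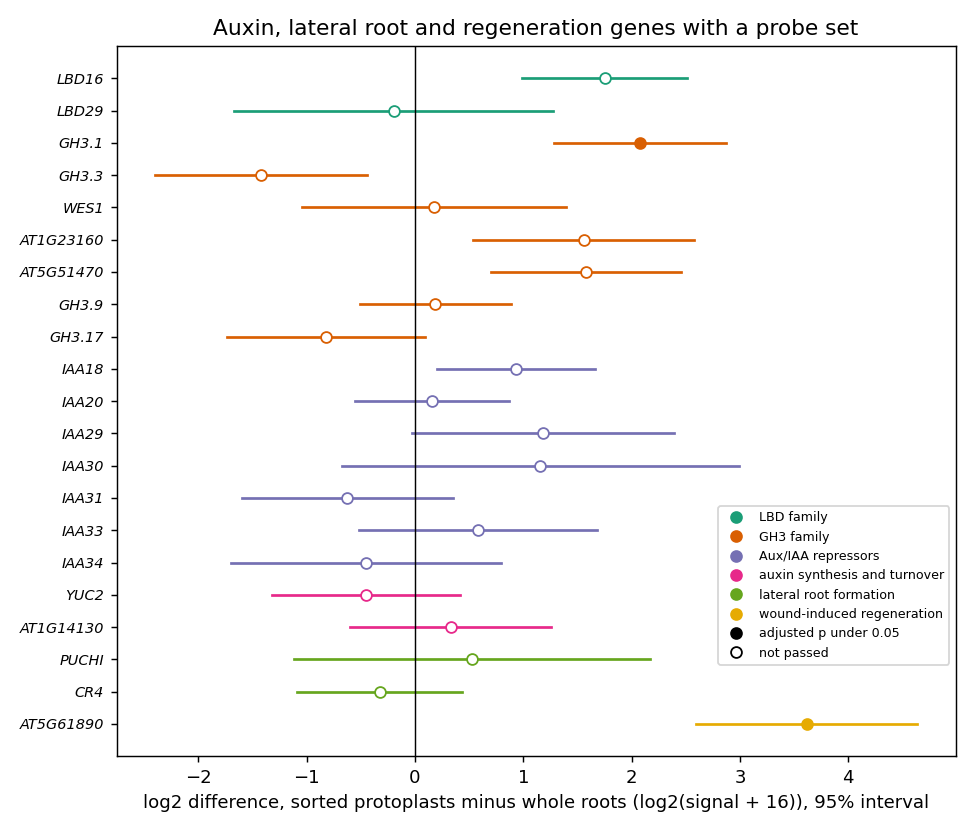
Log2 difference with its 95% interval (x axis, sorted protoplasts minus whole roots) for the 21 measured genes of the auxin, lateral root and regeneration lists, coloured by list, with filled points for an adjusted p under 0.05 in limma's test. GH3.1 at 2.08 and AT5G61890 at 3.62 are filled, and GH3.3 has an interval wholly below 0 without having passed.

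The gap between the sorted-protoplast arrays seen for LBD29 was shared by many genes of these lists. Replicate 1 was above replicate 2 of the sorted protoplasts for 18 of the 21 genes, against 50.4% of all probe sets. The gap was over 1 on the log2 scale for 9 of the 21, against 10.6% of all probe sets, and replicate 1 was the higher array for 8 of these 9. AT5G61890 was the exception, where replicate 1 minus replicate 2 was -1.05. Between the whole-root arrays replicate 1 was above replicate 2 for 8 of the 21, and 0 had a gap over 1, against 6.37% of all probe sets. Without the 3 genes LBD16, LBD29 and GH3.1, replicate 1 of the sorted protoplasts was the higher for 15 of 18.

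The widest gaps between the sorted-protoplast arrays were those of IAA30 at 2.41, PUCHI at 1.97 and LBD29 at 1.86. WES1, an auxin-conjugating enzyme gene, had 445 on sorted-protoplast replicate 1 and 150 on replicate 2, against 226 and 232 in whole roots, the same order of arrays as LBD29. Plastid transcripts ran the other way, with a mean log2 signal over 69 probe sets of 9.21 on replicate 1 and 10.22 on replicate 2 of the sorted protoplasts, against 7.22 and 6.88 on the whole-root arrays. The ratio of 3' to 5' signal of 1 pair of GAPDH controls, used as a sign of RNA quality, was 3.45 and 9.96 on the sorted-protoplast arrays, against 15.0 and 4.56 on the whole-root arrays. On a second GAPDH pair it was 1.60 and 1.90 on the sorted-protoplast arrays, against 5.73 and 1.83 on the whole-root arrays. The part of these measures in the gap of the auxin genes was not tested.

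**Figure D4:**
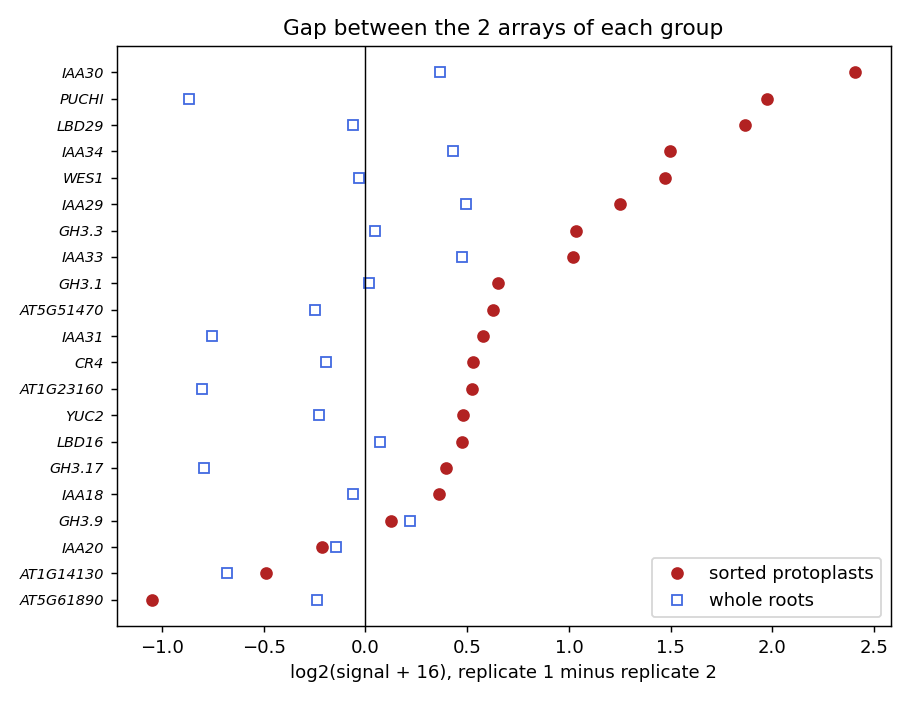
Difference in log2(signal + 16) between replicate 1 and replicate 2 (x axis) within sorted protoplasts (red circles) and within whole roots (open blue squares) for the 21 measured genes. The red circles lie right of 0 for 18 of 21 genes and reach 2.41 for IAA30, while the blue squares stay within 1 of 0.

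Lateral roots start in the pericycle beside the xylem, so markers of the cell types in the samples bear on these genes. Of 24 markers listed, 7 were measured, and none of the endodermis, phloem, quiescent centre or root cap markers was. Nor was GATA23, listed with the pericycle and stele. The root hair gene EXPA7 had a signal of 161 and 222 in sorted protoplasts, against 607 and 1001 in whole roots. EXPA18 had 121 and 150 in sorted protoplasts, against 741 and 812 in whole roots. In limma's test EXPA18 passed (adjusted p = 0.0210) and EXPA7 did not (0.0553). The stele genes LHW and PHV had log2 differences of 0.04 ± 0.38 and 0.65 ± 0.32 (SE), which did not pass. IRX15, a xylan synthesis gene of xylem, had a signal of 218 and 128 in sorted protoplasts, against 54.8 and 47.2 in whole roots. It did not pass in limma (adjusted p = 0.113). For the shoot genes the difference was -0.97 ± 0.49 (LHCB4.1) and -0.65 ± 0.35 (RCA) (SE), which did not pass. In such mixed samples a change in the share of a cell type and a change in RNA per cell cannot be told apart.

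The genes with the most similar pattern over the 4 arrays were sought among 1579 other probe sets whose single gene has a symbol, by the Euclidean distance between log2 profiles with each gene's own mean taken off. GTR1, a glucosinolate transporter gene, was nearest both to GH3.1 (distance 0.15) and to LBD16 (0.28). It had a signal of 3445 and 2489 in sorted protoplasts, against 700.2 and 720.1 in whole roots, a log2 difference of 2.02. LBD16 was itself second nearest to GH3.1 (0.35), and XTH20, a xyloglucan-modifying enzyme gene, was the next (0.40). SWEET14, a sugar transporter gene (0.29), and BZIP53, a transcription factor gene (0.30), followed GTR1 for LBD16. WNK9, a protein kinase gene (0.38), MYC4, a jasmonate-response transcription factor gene (0.41), and WES1 (0.46) were nearest to LBD29. These distances describe 4 arrays and carry no test. Those of GH3.1 hold for the offset of 16 only, since the offset sets the size of its difference. At an offset of 4 the log2 difference was 3.14 for GH3.1 and 1.83 for LBD16, and at 64 it was 0.98 and 1.51.

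Genes beside the 3 on the chromosome were compared where they had a probe set. The genes on both sides of LBD16, ZFP11 and ASL15, the LBD17 locus, had no probe set annotated to them alone. AT3G58180 and AT3G58200, on either side of LBD29, had differences of 0.36 ± 0.34 and -0.28 ± 0.35 (SE), which did not pass in limma. AT2G15000, next to GH3.1, had a signal of 255 and 293 in sorted protoplasts, against 932 and 628 in whole roots. That neighbour's difference of -1.43 ± 0.32 (SE, limma adjusted p = 0.0820) had the opposite sign to that of GH3.1 and did not pass.

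**Figure D5:**
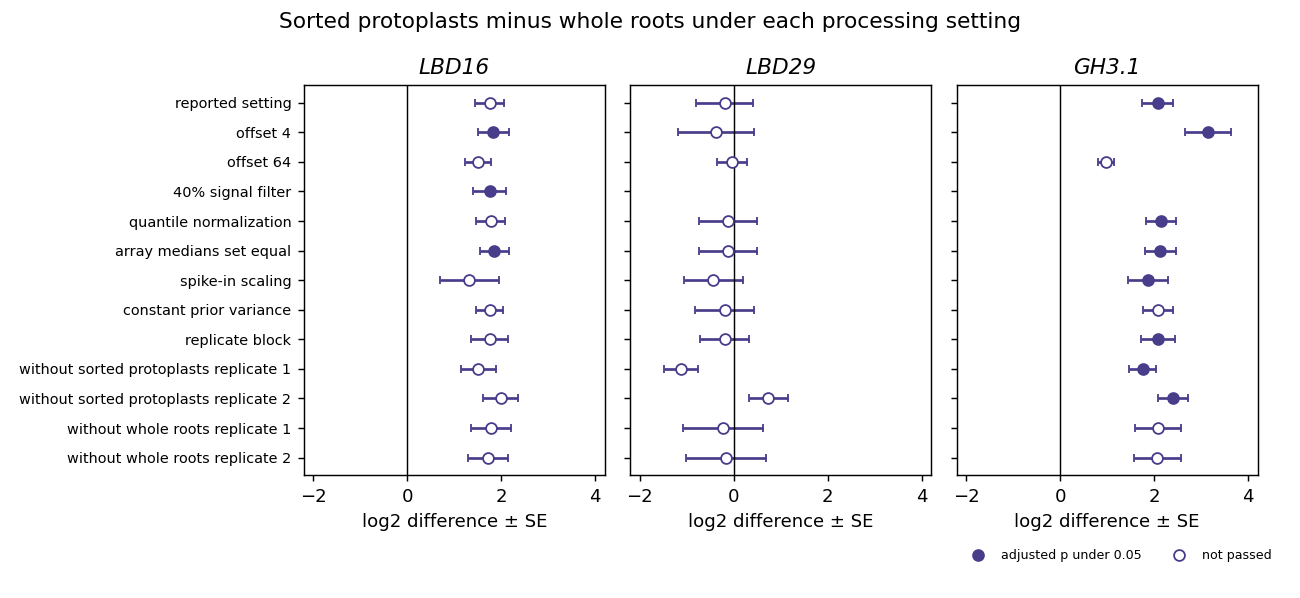
Log2 difference ± SE (x axis, sorted protoplasts minus whole roots) of the 3 genes under each processing setting (y axis), with filled points for an adjusted p under 0.05 in limma's test. LBD16 stays between 1.32 and 1.99, GH3.1 between 0.98 and 3.14, and LBD29 changes sign with the sorted-protoplast array left out; LBD29 and GH3.1 have no point with the 40% filter, which they did not pass.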

How the data were processed

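Biotin-labelled RNA from a 2-cycle Affymetrix amplification was measured on arrays, per the labels' protocols. The deposited values are signal intensities from MAS5, as the submitters' processing notes name it. The trimmed mean (2% left out at each end) was 250.02 on the lowest and 250.03 on the highest array. Probe sets were named by the platform annotation, updated to TAIR10.1 RefSeq symbols. Of the 22810 probe sets 64 are controls, 13513 have 1 gene, 503 several and 8730 are unnamed here. 0 columns were left unmapped. Sequences are not shown.

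Signals were transformed as log2(signal + 16) and tested with limma 3.58.1 in R 4.3.3 (trended prior variance, 2 residual and 4.33 prior degrees of freedom), with Benjamini-Hochberg adjustment over 22746 probe sets. Each alternative fit estimated its own prior degrees of freedom. The test was checked on simulated data. The alternative filter removed the 40% with the lowest mean log2 signal, below a signal of about 51.3. Values under the offset made up 19.6% to 22.1% of an array.

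The 3 genes and all lists were chosen with earlier results of these data known. Named were the 3 genes, list members past the threshold or else the 2 brightest, and the 3 nearest profiles of each gene. GH3.3, GH3.9, GH3.17, WES1, AT1G23160, AT5G51470, IAA20, IAA29, IAA31, IAA33, IAA34 and neighbouring genes were added after their values were seen. Several probe sets of 1 gene were to be represented by the brightest. Same-numbered arrays had deviations that correlated at -0.13, so numbers were not taken as pairs. The number of arrays limits the precision.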

Additional observations from a re-analysis of the deposited data

How the results depend on the processing

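LBD16 kept its direction in every alternative run. It passed in limma at an offset of 4 (1.83), with array medians set equal (1.85) and with the 40% filter (1.75 ± 0.36, SE). With that filter and a replicate block it also passed (1.75 ± 0.46, SE, limma adjusted p = 0.00199). The block gave a larger SE and yet a lower p, so that p leans on limma's prior variance. Replicate numbers were also not taken as pairs, so this pass is no firmer evidence. With the filter and spike-in scaling LBD16 did not pass (1.32, limma adjusted p = 0.232). It lay between 1.51 and 1.99 with 1 array left out, and with the filter as well its adjusted p was 0.0329 without sorted-protoplast replicate 1, 0.00632 without sorted-protoplast replicate 2, 0.138 without whole-root replicate 1 and 0.131 without whole-root replicate 2. The combinations with the filter and the crossed numbers were chosen after seeing the data. GH3.1 lost its call with an offset of 64 (0.98), with a constant prior variance (2.08) and without either whole-root array, and ranged from 1.75 to 2.40 with 1 array left out. LBD29 ranged from -1.13 to 0.73 and turned positive without sorted-protoplast replicate 2.

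Over all probe sets 394 were called higher and 137 lower. The lower calls were 216 at an offset of 4. The calls were 255 and 61 at an offset of 64, 870 and 561 with the filter, and 255 and 238 with spike-in scaling, where 51.7% of calls were higher against 74.2% as deposited. With 1 array left out they ranged from 0 to 530 and from 0 to 111, the 0 coming without a whole-root array. Of the listed genes 2 were called higher, against 3 at an offset of 4, with array medians set equal or with the filter, 1 at an offset of 64 or with a constant prior variance and 0 to 2 with 1 array left out. Where not stated, the cause of a move was not tested. A replicate block on the titles' numbers gave 504 and 175 calls, and LBD16 (1.75, adjusted p = 0.0580), GH3.1 (2.08, 0.0283) and LBD29 (-0.20, 0.905) stayed on the same side. With crossed numbers they were 623 and 263.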
